A study of Mus musculus with 38 samples.

Results

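Transcripts of 9 genes that mark the basal, or myoepithelial, layer of the mammary gland were followed through tumor progression and through chemotherapy in a transplanted mouse model of breast cancer. The genes were Krt5, Krt14 and Krt17, which encode basal keratins, Trp63, which encodes the basal transcription factor p63, Acta2, Myh11, Cnn1 and Tagln, which encode parts of the contractile apparatus, and Oxtr, which encodes the oxytocin receptor. Their probes were found by name: every probe that was not an array control and whose gene name was one of these symbols or an older synonym was taken. This gave 17 probes of 41174 and 9 genes of 28784. Tumors were grown from hyperplastic tissue of mice with 2 transgenes, MMTV-PyMT, in which a mammary tumor virus promoter drives polyoma middle T, and actin-GFP, in which an actin promoter drives green fluorescent protein. This tissue was grafted into FVB/n hosts whose own mammary epithelium had been cleared from the fat pad and which lack the fluorescent protein, and GFP-positive cells were sorted, so that all groups derive from the same oncogene and the same transplantation. The progression experiment held 5 adenomas, 6 carcinomas, 6 samples of tumor cells disseminated to the lung, each pooled from the lungs of several mice, and 5 samples of lung metastases collected after the primary tumor had been removed. Adenomas were taken earlier after transplantation than carcinomas. The chemotherapy experiment held 6 untreated tumors, 6 residual tumors (regressed, after the first dose) and 4 relapsed tumors (resistant, after the fourth dose) of mice given docetaxel, doxorubicin and cyclophosphamide. Treatment of the residual and relapsed tumors began 2 months after transplantation.

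In the normal gland, myoepithelial cells lie between the milk-producing luminal cells and the basement membrane. They are joined to it by hemidesmosomes that anchor keratin filaments, and they contract in response to oxytocin to eject milk. Their contractile proteins are those of smooth muscle, so Acta2, Tagln, Cnn1 and Myh11 are also transcribed in blood vessel walls, pericytes and activated fibroblasts, whereas basal keratins and p63 are shared with other stratified epithelia. Tumors driven by middle T are at first mostly luminal, and cells with basal keratins form a part of them. The authors describe outgrowths in this model as becoming basal-like with malignant progression.

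Every value is the log2 ratio of the sample, labeled with Cy5, to a common mouse reference RNA, labeled with Cy3, for 1 probe of the gene. A value of 0 is equality with the reference, so levels of different genes cannot be set against each other. A change is a difference of group means of such ratios. It was called where limma's moderated test gave an adjusted p below 0.05, with Benjamini-Hochberg adjustment over all 28784 genes, and the change was at least 1 on the log2 scale, that is 2-fold. The 2 experiments were normalized and tested apart because the progression RNA had been amplified once more.

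Between 48.4% and 78.9% of spots were well above background on the progression arrays and between 50.5% and 64.3% on the chemotherapy arrays. Luminal identity was checked with 21 genes, of which 17 to 20 were above background on each progression array and 18 to 20 on each chemotherapy array. The median over arrays of the mean ratio of these genes was 1.20 in disseminated cells, below 2.38 in adenomas, 2.78 in carcinomas and 2.53 in metastases. In 4 progression arrays (disseminated replicates 4 and 6, carcinoma replicate 6 and metastases replicate 4) the median correlation with the other arrays of their group was under 0.8. Adenomas and disseminated cells shared slides 4 to 6 and 1 scanning day, and carcinomas and metastases shared slides 1 to 3 and another day. Slide and scanning day therefore cannot be told apart from the group when adenomas are compared with carcinomas or metastases, or disseminated cells with either. The chemotherapy arrays had 1 scanning day. Their untreated tumors were on slides 1, 2 and 5, residual tumors on slides 2 to 4 and relapsed tumors on slides 4 and 5. The arrays are the replicates here, and p-values measure the spread between arrays, which the labels do not tie to separate mice.

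Through progression called changes were found for 3 of the 9 genes. Acta2, Tagln and Cnn1 were lower in metastases than in adenomas, by 5.50-fold, 2.89-fold and 5.19-fold, with no overlap between the groups. In that comparison 14.6% of all genes were called, 8.51% were called lower, and 21.4% did not overlap. Krt5, Krt14, Krt17, Trp63 and Myh11 had no called change in any of the 6 comparisons of progression groups. Of all genes, between 3.31% and 14.6% were called in each of these comparisons. Oxtr was near background throughout. No difference between the chemotherapy groups was called for any of the 9 genes, and at most 0.212% of all genes were called in a comparison there.

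**Figure D1:**
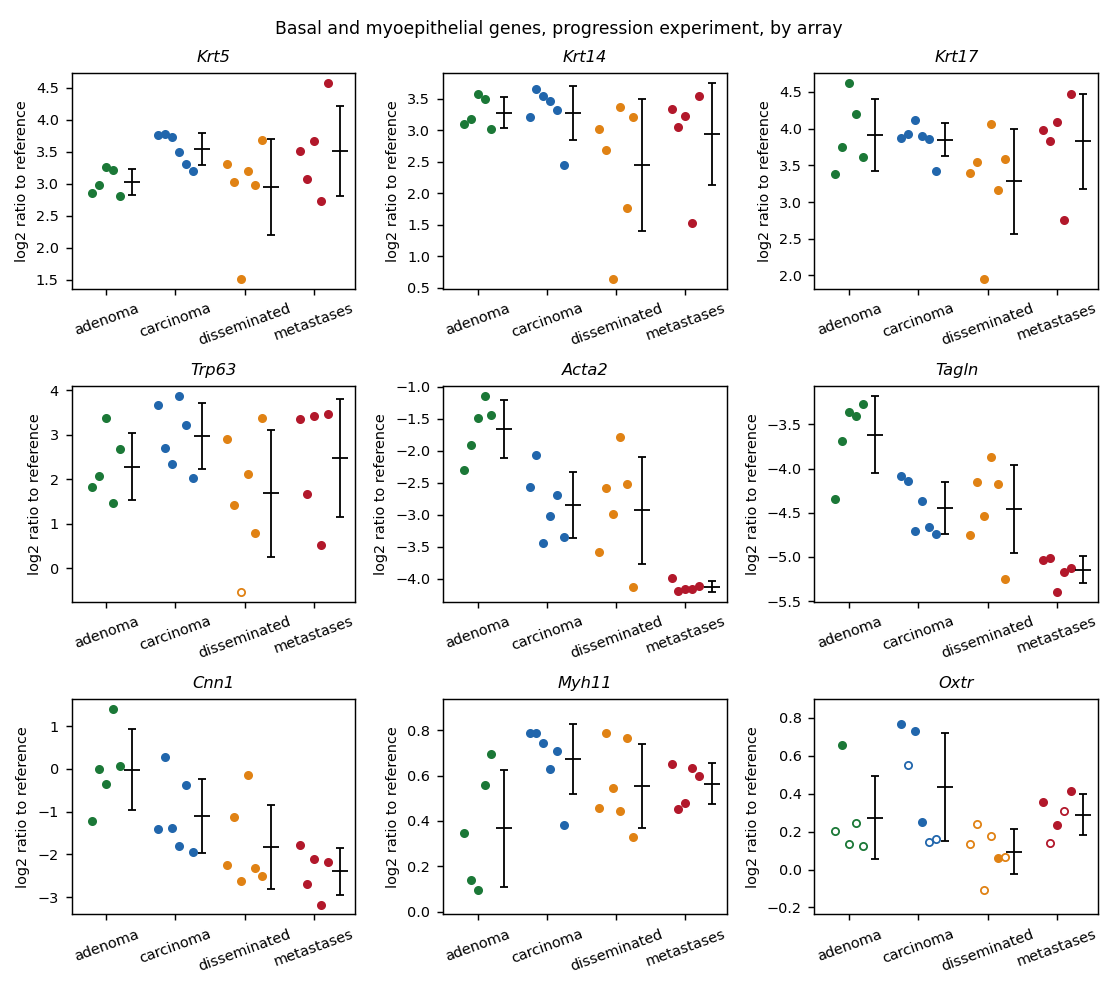
Log2 ratio to the reference (vertical axis) of each of the 9 genes on the 22 progression arrays, by group. Filled points are arrays where the sample channel was well above background and open points those where it was not, and bars give the mean and the SD. Acta2 lies between -4.18 and -3.99 in all 5 metastases, below every adenoma and carcinoma, while Krt14 lies above 0 on all arrays.

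Acta2 encodes smooth muscle alpha-actin, the main actin of the contractile filaments of myoepithelial and smooth muscle cells. Its log2 ratio in the 5 adenomas was -2.31, -1.91, -1.50, -1.15 and -1.44. In the 6 carcinomas it ran from -3.44 to -2.06 with a median of -2.85, and in the 6 samples of disseminated cells from -4.13 to -1.79 with a median of -2.78. The 5 metastases gave -3.99, -4.18, -4.16, -4.16 and -4.11. Metastases thus lay in a band narrower than that of any other group and below all adenomas and carcinomas, while disseminated cells spread over the whole range of the carcinomas and beyond. The means were -1.66 ± 0.45 (SD, n = 5) in adenomas, -2.85 ± 0.52 (n = 6) in carcinomas, -2.93 ± 0.83 (n = 6) in disseminated cells and -4.12 ± 0.08 (n = 5) in metastases. Against adenomas, the limma fit gave a change of -1.19 (SE 0.33, adjusted p = 0.0233) in carcinomas, -1.27 (SE 0.33, adjusted p = 0.0101) in disseminated cells and -2.46 (SE 0.34, adjusted p = 5.31e-05) in metastases. Metastases were also lower than carcinomas (-1.27, adjusted p = 0.00904) and than disseminated cells (-1.19, adjusted p = 0.0202). Carcinomas and disseminated cells, neighbors in the order of levels, differed by less than their spread (-0.08, SE 0.31, adjusted p = 0.880). The change between adenomas and carcinomas was not called without adenoma replicate 3 (-1.15, adjusted p = 0.0567), adenoma replicate 4 (-1.06, adjusted p = 0.0517) or carcinoma replicate 3 (-1.08, adjusted p = 0.0552), and that between disseminated cells and metastases not without disseminated replicate 4 (-0.96, adjusted p = 0.0441). With the slide as a block, which the layout allows for 2 of the comparisons, Acta2 differed by -1.38 (adjusted p = 0.0155) between disseminated cells and adenomas and by -1.29 (adjusted p = 0.0052) between metastases and carcinomas.

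Acta2 was the member with most probes, and they did not all move together. The values above come from the probe at chr19:33942803-33942862 of the mouse build mm7, which was spotted 10 times on each array and had the highest mean signal of the 5. Annotation of that build was not used here, so the exon that a probe lies in is not given. The probe at chr19:33942440-33942499 fell likewise, with means of -0.65, -2.18, -2.73 and -3.23 in adenomas, carcinomas, disseminated cells and metastases. Its change from adenomas to metastases was -2.58 (limma adjusted p = 1.90e-06 over all probes). The probe that spans chr19:33949738-33952992 had means of -1.30, -2.29, -1.09 and -1.80 in the same order. Disseminated cells were called higher than carcinomas by this probe (1.20, adjusted p = 0.000259), where the first gave -0.08. The change from adenomas to metastases was -0.51 by it (adjusted p = 0.0733), with no call. From carcinomas to metastases it gave 0.49 (adjusted p = 0.0866), also with no call. For that comparison the first probe gave -1.27 and the probe at chr19:33942440-33942499 gave -1.04. At chr19:33941939-33941997 the means stayed between 0.16 and 0.62, and at chr19:33954688-33954747 the sample channel was not well above background on any progression array. The Acta2 transcript is also closely alike to those of Acta1, Actc1 and Actg2, and how far each probe reads them was not tested. From adenomas to disseminated cells the probe that spans chr19:33949738-33952992 gave 0.20 (limma adjusted p = 0.508), with no call. There the first probe gave -1.27 and the probe at chr19:33942440-33942499 gave -2.08, both called. The size of the Acta2 change is therefore uncertain. Its direction differed between probes from carcinomas to metastases and from adenomas to disseminated cells.

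**Figure D2:**
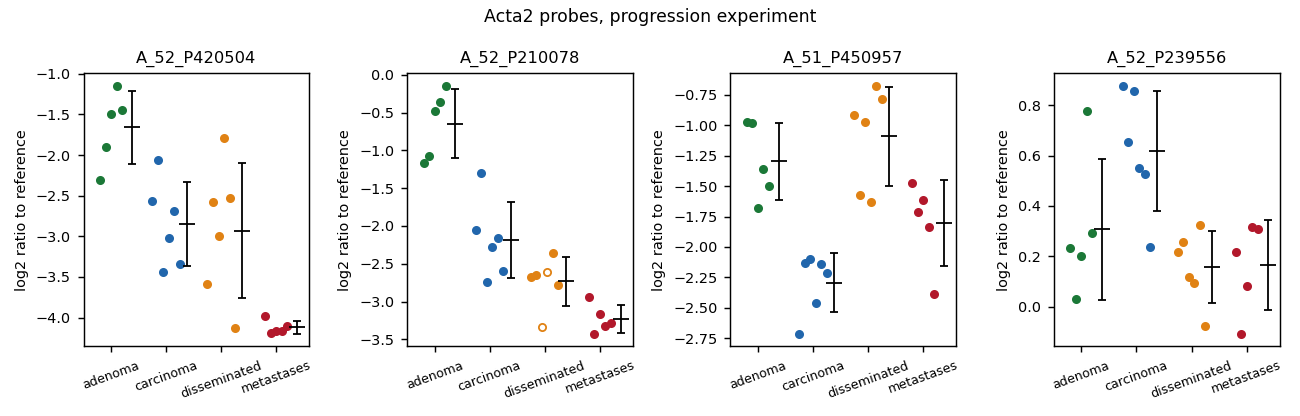
Log2 ratio to the reference (vertical axis) of Acta2 probes on the progression arrays, by group, with means and SDs. Open points are arrays where the sample channel was not well above background. The probes at chromosome 19 starts 33942803 and 33942440 fall from adenomas to metastases, and the probe at 33949738 is higher in disseminated cells than in carcinomas. The means of the remaining probes of the gene lie between -0.05 and 0.62.

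Tagln encodes transgelin, an actin-binding protein of smooth muscle, and was read at chr9:45888137-45888196. Its log2 ratio was -4.35, -3.69, -3.36, -3.41 and -3.27 in adenomas and -5.03, -5.02, -5.39, -5.17 and -5.13 in metastases. Carcinomas ran from -4.74 to -4.08 with a median of -4.51, and disseminated cells from -5.25 to -3.87 with a median of -4.35. All metastases lay below all adenomas and all carcinomas. The change from adenomas to metastases was -1.53 (SE 0.23, limma adjusted p = 0.000103) and was called. Smaller falls passed the adjusted p but not the 2-fold limit: -0.83 in carcinomas (adjusted p = 0.0200) and -0.84 in disseminated cells (adjusted p = 0.0116) against adenomas, and in metastases -0.70 against carcinomas (adjusted p = 0.0281) and -0.69 against disseminated cells (adjusted p = 0.0433). Without adenoma replicate 1, carcinomas and disseminated cells were called lower than adenomas as well (-1.02, adjusted p = 0.00593, and -1.02, adjusted p = 0.00395). A second probe, at chr9:45888956-45889015, had means of -2.40, -2.83, -3.21 and -3.46 in adenomas, carcinomas, disseminated cells and metastases and was called lower in metastases than in adenomas (-1.06, adjusted p = 0.000340).

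Cnn1 encodes calponin, which binds actin and dampens myosin, and was read at chr9:21988172-21988231. Adenomas gave log2 ratios of -1.21, -0.01, -0.35, 1.41 and 0.08, and metastases -1.78, -2.70, -2.12, -3.18 and -2.19. Carcinomas ran from -1.93 to 0.27 with a median of -1.40 and disseminated cells from -2.63 to -0.13 with a median of -2.28. The adenomas and metastases did not overlap, although the adenomas spread over more than 2 log2 units. The change was -2.38 (SE 0.52, limma adjusted p = 0.00220) from adenomas to metastases and -1.81 (SE 0.50, adjusted p = 0.0153) from adenomas to disseminated cells, and both were called. Metastases against carcinomas gave -1.28 (adjusted p = 0.0725) and carcinomas against adenomas -1.09 (adjusted p = 0.163), neither called. Without carcinoma replicate 6 the metastases against carcinomas were called for Cnn1 (-1.45, adjusted p = 0.0444). The slide as a block gave -1.94 (adjusted p = 0.0290) for disseminated cells against adenomas.

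Myh11 encodes the smooth muscle myosin heavy chain, the motor of the contractile filaments, and its probe spans chr16:13741638-13744562. Its log2 ratio was 0.35, 0.14, 0.10, 0.56 and 0.69 in adenomas and 0.65, 0.45, 0.48, 0.63 and 0.60 in metastases. Carcinomas lay between 0.38 and 0.79 and disseminated cells between 0.33 and 0.79. The groups overlapped in all comparisons, and no adjusted p of the limma fit was below 0.0805, that of carcinomas against adenomas (0.31, SE 0.11). Its change from adenomas to metastases was 0.20 (SE 0.12, adjusted p = 0.227), where the other contractile members were called lower. The Myh11 probe was above background on all progression arrays but dim. Its group means of log2 signal lay between 7.97 and 8.07, against 14.1 to 15.2 for Acta2. The background correction used here shrinks ratios of dim spots, so a fall of Myh11 could be understated.

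The 3 contractile genes that fell are described in general as targets of serum response factor, which binds the CArG box (the motif of that name). The part of this factor in their fall was not tested. The sequence before the start site is shown for Acta2 and Cnn1, and for Myl9, another contractile gene described below. RefSeq windows of build GRCm38.p6 were available for 5 of the 9 members (Krt5, Krt14, Acta2, Cnn1 and Oxtr). The 250 bases before the start are printed 5′ to 3′ on the strand of the gene, and capitals mark matches to the CArG box with at most 1 base off, on either strand. The windows are chr19:34255374-34255623 (minus strand) for Acta2, chr9:22099003-22099252 (plus strand) for Cnn1 and chr2:156775214-156775463 (plus strand) for Myl9.
Acta2: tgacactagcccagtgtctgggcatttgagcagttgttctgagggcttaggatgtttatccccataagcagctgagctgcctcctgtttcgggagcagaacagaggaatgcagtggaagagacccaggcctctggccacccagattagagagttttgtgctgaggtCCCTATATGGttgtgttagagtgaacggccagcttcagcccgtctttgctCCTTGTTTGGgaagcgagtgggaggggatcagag
Cnn1: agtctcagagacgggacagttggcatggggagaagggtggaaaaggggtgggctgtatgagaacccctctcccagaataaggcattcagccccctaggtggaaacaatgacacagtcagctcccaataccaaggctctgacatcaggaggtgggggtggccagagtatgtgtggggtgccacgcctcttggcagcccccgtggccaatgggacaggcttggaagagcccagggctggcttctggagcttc
Myl9: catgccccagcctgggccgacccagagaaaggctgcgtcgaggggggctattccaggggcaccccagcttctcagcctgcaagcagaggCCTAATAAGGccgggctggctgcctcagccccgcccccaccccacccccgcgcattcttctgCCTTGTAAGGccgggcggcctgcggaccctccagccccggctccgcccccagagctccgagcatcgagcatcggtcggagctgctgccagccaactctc
Acta2 held 2 matches with 1 base off, beginning 84 and 34 bases before the start. Myl9 held 1 exact match, beginning 161 bases before the start, and 1 with a base off at 99 bases, and Cnn1 held none in this window. In windows of 300 bases, which include 50 bases after the start, an exact match was in 0 of the 5 member windows and in 1.63% of all 32851 windows. With 1 base off, a search chosen after the data were seen, the share was 1 of 5 member windows against 21.1% of all windows. Of the 18 windows of the further contractile genes, 3 held an exact match (Myl9, Srf and Vcl) and 8 a match within 1 base. Cald1 and Lmod1, which like Myl9 were called lower in metastases, held no exact match. A match describes these letters only, and no match says nothing about binding elsewhere.

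The calls of members are given here beside those of all genes. In metastases against adenomas 3 of 9 members were called, all lower, where 14.6% of all genes were called and 8.51% were called lower. No overlap between these groups was found for the same 3 members and for 21.4% of all genes. In disseminated cells against adenomas 2 members were called lower (10.5% of all genes called, 5.84% lower), and no member of the 9 lay apart between the groups (9.35% of all genes). Metastases against carcinomas gave 1 member called lower (10.1% called, 5.34% lower) and 2 without overlap, Acta2 and Tagln (13.5%). In metastases against disseminated cells 1 was called lower (7.11% called, 3.67% lower) and 0 lay apart (4.18%). Carcinomas against adenomas had 1 member called lower (3.31% called, 2.14% lower), and again 0 lay apart (10.5%). Disseminated cells against carcinomas had 0 members called (11.6% called, 6.12% lower) and 0 apart (7.13%). No member was called higher in these comparisons, where the share of all genes called higher was 1.17% in carcinomas, 4.64% in disseminated cells and 6.08% in metastases against adenomas, 5.48% in disseminated cells and 4.74% in metastases against carcinomas, and 3.44% in metastases against disseminated cells. Unadjusted p of the limma fit was below 0.05 for Trp63 and Oxtr in disseminated cells against carcinomas, where adjusted p was 0.128 and 0.0361. It was also below 0.05 for Acta2, Tagln, Cnn1 and Myh11 in carcinomas against adenomas. The share of all genes at that limit was not counted, so no result about the members is read from it. The median change of the 9 members was -0.09 from adenomas to metastases, against 0.02 over all genes. Disseminated cells against adenomas gave a median of -0.63 (-0.01 over all genes), and disseminated cells against carcinomas one of -0.57 (-0.07 over all genes), with all 9 members on the lower side in the latter. All 9 also lay lower in metastases than in carcinomas (median -0.34, against -0.05 over all genes). Of all genes, 39.5% and 40.8% were on the higher side in these comparisons with carcinomas.

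**Figure D3:**
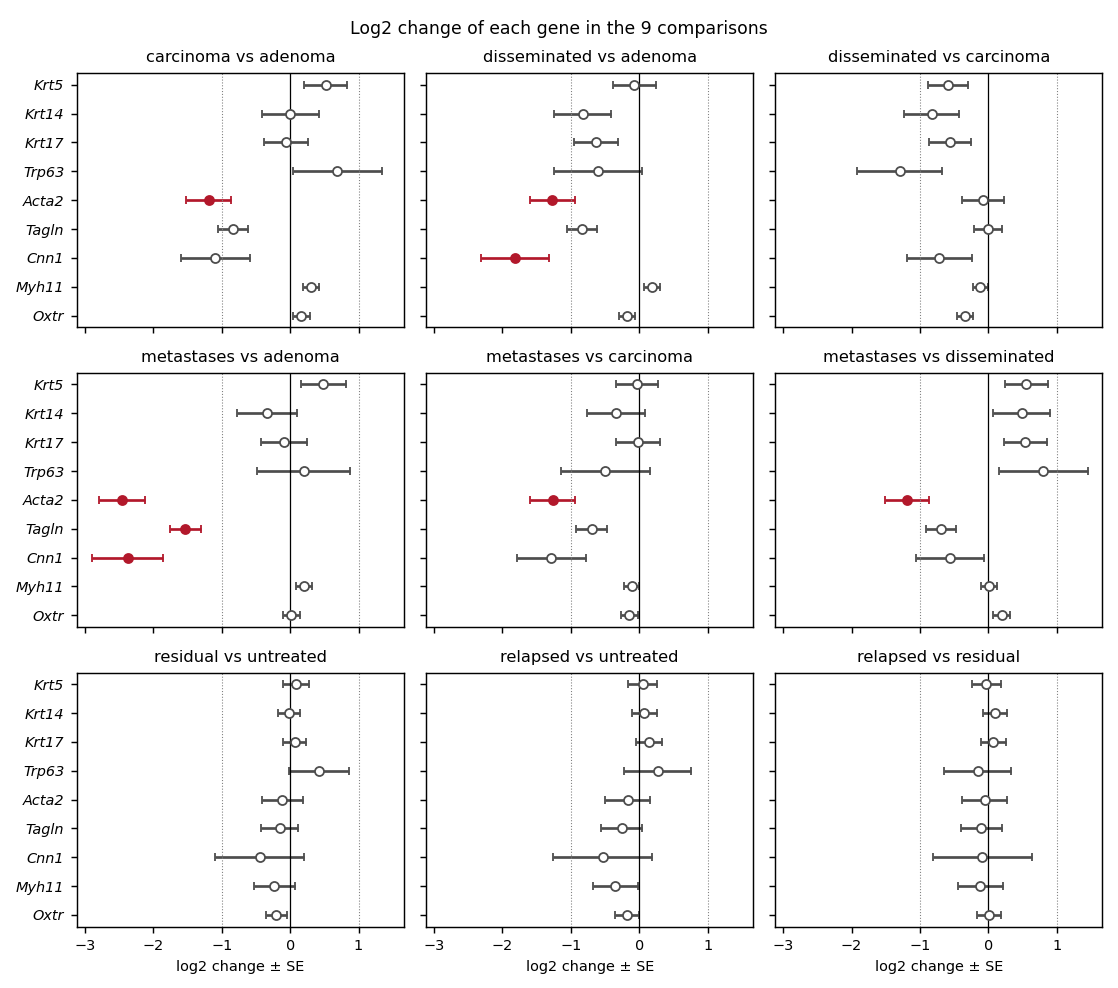
Log2 change (horizontal axis) of each of the 9 genes in the comparisons of groups, with bars of 1 SE; red points are called changes and dotted lines mark the 2-fold limit. Called changes belong to Acta2, Cnn1 and Tagln and all lie on the lower side.

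Krt14, the keratin of basal cells that pairs with keratin 5, was read by a probe that spans chr11:100312408-100313013. Its log2 ratio was 3.10, 3.18, 3.57, 3.49 and 3.02 in adenomas and 3.33, 3.06, 3.23, 1.52 and 3.55 in metastases. Carcinomas ran from 2.45 to 3.65 (median 3.40) and disseminated cells from 0.64 to 3.37 (median 2.85). Most arrays of all 4 groups thus lay close to 3, and the low values were single arrays: disseminated replicates 3 and 5 (0.64 and 1.76) and metastases replicate 4 (1.52). The change from carcinomas to disseminated cells was -0.83 (SE 0.40, limma adjusted p = 0.133) and became -0.47 (adjusted p = 0.331) without disseminated replicate 3.

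Krt5, the partner of keratin 14 in basal filaments, was read at chr15:101693240-101693299. Adenomas gave 2.85, 2.99, 3.26, 3.21 and 2.81, and metastases 3.50, 3.07, 3.67, 2.73 and 4.57. Carcinomas lay between 3.21 and 3.77 (median 3.61) and disseminated cells between 1.51 and 3.69 (median 3.12). All groups overlapped, with disseminated replicate 3 (1.51) and metastases replicate 5 (4.57) at the ends, and the largest change was -0.59 (SE 0.30, limma adjusted p = 0.155), between carcinomas and disseminated cells.

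Krt17, a keratin of basal and stressed epithelia, was read at chr11:100365309-100365368. Its log2 ratio was 3.39, 3.75, 4.62, 4.21 and 3.61 in adenomas, between 3.43 and 4.12 in carcinomas (median 3.89), between 1.95 and 4.07 in disseminated cells (median 3.47), and 3.98, 3.84, 4.09, 2.76 and 4.48 in metastases. The mean of metastases, 3.83 ± 0.64 (SD, n = 5), was within the spread of that of adenomas, 3.92 ± 0.50 (n = 5). The change was -0.09 (SE 0.33, limma adjusted p = 0.880).

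Trp63 encodes p63, the transcription factor that maintains basal cells. Of the 9 genes it had the largest SD in disseminated cells (1.44) and in metastases (1.34). At chr16:25553466-25553525 its log2 ratio was 1.82, 2.08, 3.38, 1.47 and 2.69 in adenomas and 3.36, 1.67, 3.42, 0.51 and 3.46 in metastases. Carcinomas ran from 2.03 to 3.88 (median 2.97) and disseminated cells from -0.53, on replicate 3 where the probe was not well above background, to 3.37 (median 1.77). Both the disseminated cells and the metastases held arrays as high as the adenomas and arrays far below them. The change from carcinomas to disseminated cells was -1.30 (SE 0.62, limma adjusted p = 0.128), and -0.86 (adjusted p = 0.302) without disseminated replicate 3. The other Trp63 probes, at chr16:25526842-25527619 and chr16:25529172-25529231, were mostly below background.

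These differences with disseminated cells changed when the 4 arrays of low correlation with their group were left out, an alternative chosen after the data were seen. Krt14 was then called lower in disseminated cells than in carcinomas (-1.41, adjusted p = 0.00334) and than in adenomas (-1.25, adjusted p = 0.00925), and Trp63 lower than in carcinomas (-2.02, adjusted p = 0.0134). Against metastases the same fit called the disseminated cells lower in Krt14, Krt17 and Trp63, by 1.26 (adjusted p = 0.0140), 1.08 (adjusted p = 0.0139) and 1.83 (adjusted p = 0.0396) as metastases minus disseminated cells. Among the arrays left out was metastases replicate 4, the lowest of the metastases for Krt14, Krt17 and Trp63. Disseminated replicates 3 and 5, the low ones for Krt14, stayed in. Leaving out arrays unlike their group also narrows the spread within groups, so these calls are no independent support for a difference. The calls of Acta2, Cnn1 and Tagln from adenomas to metastases were also made without the 4 arrays.

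Oxtr, the receptor through which oxytocin makes myoepithelial cells contract, was read at chr6:112649929-112649988. The sample channel was well above background on 1 of 5 adenomas, 3 of 6 carcinomas, 1 of 6 samples of disseminated cells and 3 of 5 metastases, so most values are close to the limit of the array. The log2 ratio was 0.20, 0.65, 0.14, 0.25 and 0.12 in adenomas and 0.35, 0.14, 0.23, 0.31 and 0.42 in metastases, between 0.15 and 0.77 in carcinomas, and between -0.11 and 0.24 in disseminated cells. Disseminated cells were lower than carcinomas by the adjusted p (-0.34, SE 0.12, limma adjusted p = 0.0361) but not by 2-fold. The other Oxtr probe, at chr6:112637108-112637169, gave -0.15 (adjusted p = 0.375) for the same comparison.

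Other contractile genes were taken from a list of 16, of which all were measured. Between adenomas and carcinomas none was called, and the list's median change was -0.12 against 0.07 over all genes. In disseminated cells against adenomas 6 were called lower: Cald1 (-2.03), which encodes caldesmon, Lmod1 (-1.90), which encodes a nucleator of actin in smooth muscle, Myl9 (-1.73), which encodes the regulatory light chain of smooth muscle myosin, Smtn (-1.24), Tpm2 (-1.13) and Srf (-1.01), which encodes serum response factor. In metastases against adenomas 3 were called lower, Myl9 (-2.63), Cald1 (-2.42) and Lmod1 (-1.93), and the median of the list was -0.50 against 0.02 over all genes. The same 3 genes were called lower in metastases than in carcinomas (Myl9 -2.59, Cald1 -2.55, Lmod1 -1.81), while Vcl, which encodes vinculin of adhesion sites, was called higher (1.42). Against carcinomas, disseminated cells had 4 called lower (Cald1 -2.15, Lmod1 -1.78, Myl9 -1.68 and Tpm2 -1.18), and Flna, which encodes an actin crosslinker found in most cells, was higher (1.20). Only Flna was called between metastases and disseminated cells (-1.65).

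Genes of basal adhesion, a list of 19 keratins, hemidesmosome parts and desmosome parts, mostly did not pass. Carcinomas were called higher than adenomas in Pkp1 (2.41), which encodes the desmosomal plakophilin 1, and in Krt15 (2.21), another basal keratin. Metastases were called higher than adenomas only in Sfn (2.10), which encodes the stratifin of stratified epithelia. Itgb1, the integrin beta 1 chain found in most cells, was called higher in disseminated cells (1.44) and in metastases (1.51) than in carcinomas, and Lamb3, a chain of the basement membrane laminin, lower in disseminated cells than in carcinomas (-1.88). Metastases exceeded disseminated cells in Sfn (1.96) and Krt16 (1.27). None of the 19 was called between disseminated cells and adenomas, where the median was -0.07 and that of all genes -0.01.

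A list of 18 further genes linked to basal cells, their regulators and receptors moved in both directions. Metastases against adenomas had 3 called higher, Procr (5.25), which encodes the protein C receptor, Cav1 (1.89), which encodes caveolin 1, and Nrg1 (1.27), which encodes a ligand of ErbB receptors. In the same comparison Egfr (-1.997), Snai2 (-1.77), which encodes the transcription factor Slug, and Sparc (-1.18) were called lower. Disseminated cells against adenomas had 4 higher, Vim (3.53), Procr (2.97), Cav1 (2.28) and Nrg1 (1.49), and 1 lower, Egfr (-1.90). Against carcinomas, 4 were higher in disseminated cells (Vim 3.91, Cav1 2.34, Jag1 1.97 and Nrg1 1.24) and 4 in metastases (Procr 3.53, Vim 2.03, Cav1 1.96 and Jag1 1.45), and Lgr5 and Igfbp2 were lower in both (Lgr5 -1.49 and -1.47, Igfbp2 -1.83 and -1.12). Carcinomas against adenomas had Lgr5 (1.44) and Igfbp2 (1.39) higher and Jag1 (-1.05) lower. None of the 18 was called between metastases and disseminated cells. Vim, Cav1 and Procr are also transcribed in blood vessels or white blood cells, so they are not markers of basal cells alone.

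Markers of other cells moved with these groups. In bulk RNA of sorted cells, fewer cells of a type and less RNA per cell cannot be told apart. The mean log2 ratio of 16 macrophage genes was between -0.42 and 0.21 in adenomas and between -1.06 and 0.28 in carcinoma replicates 1 to 5, but 4.92 in carcinoma replicate 6. It was between 3.33 and 5.30 in disseminated cells, and in metastases replicates 1 to 5 it was 3.44, 0.37, 4.38, 5.38 and 1.05. Metastases replicate 2, with 0.37, had an Acta2 ratio of -4.18, the lowest of the metastases, and a Tagln ratio of -5.02, the highest of them. Of the macrophage genes 16 were called higher in disseminated cells and 11 in metastases than in adenomas. The part of these cells in the changes of disseminated cells was not tested.

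Fibroblasts and pericytes can also transcribe Acta2, Tagln and Cnn1. The mean of 14 fibroblast genes was between -2.56 and -1.25 in adenomas, between -3.32 and -1.69 in carcinomas, between -3.37 and -0.9995 in disseminated cells and between -3.70 and -2.25 in metastases. In metastases against adenomas 6 of the 14 were called lower, none higher, with the largest falls in Postn (-3.22), which encodes periostin, and Col1a1 (-3.14), which encodes a chain of collagen I. Of 11 pericyte and vascular smooth muscle genes, 10 were measured. Their mean ran from -0.31 to 0.21 in adenomas, from -0.14 to 0.52 in carcinomas, from -0.44 to 0.29 in disseminated cells and from -0.53 to -0.08 in metastases. In carcinomas against adenomas 2 of them were called higher and 0 lower, with the largest rise in Higd1b (1.69), where Acta2 was called lower. Des, which encodes desmin, was the gene of that list called lower in metastases than in adenomas (-1.09). Fibroblast transcripts therefore fell in the same comparison as Acta2, Tagln and Cnn1, and their part in it was not tested. The remaining lists gave, for metastases against adenomas, 0 of 21 luminal genes higher and 2 lower, 2 of 5 milk genes lower, 2 of 10 endothelial genes higher, 6 of 9 measured alveolar macrophage genes higher, 3 of 10 neutrophil genes higher and 1 lower, 2 of 14 lymphocyte genes lower, 4 of 14 lung epithelial genes higher, 2 of 10 skeletal muscle genes lower and 2 of 7 adipocyte genes higher.

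Members were also compared array by array. Over the 22 progression arrays, which share the reference and fall into groups with different means, Acta2 correlated with Tagln (Pearson r = 0.97, Spearman rho = 0.96) and with Cnn1 (r = 0.86, rho = 0.83). For deviations from the group means r was 0.89 and 0.75, so the likeness was also present within groups. Krt14 correlated with Krt17 (r = 0.92, rho = 0.91), and still with r = 0.78 when the 2 arrays farthest from the median of Krt14, disseminated replicate 3 and metastases replicate 4, were left out. Krt14 with Trp63 gave r = 0.81 (rho = 0.63), and 0.60 without those arrays. Between keratins and contractile genes the values ranged widely: r was 0.18 (rho = 0.22) for Krt14 and Acta2, but 0.52 (rho = 0.53) for Krt14 and Cnn1 and 0.48 (rho = 0.47) for Krt17 and Cnn1. Myh11 with Acta2 gave r = -0.08 (rho = 0.02) over all arrays and 0.45 for deviations from the group means. These correlations describe the arrays and carry no test.

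**Figure D4:**
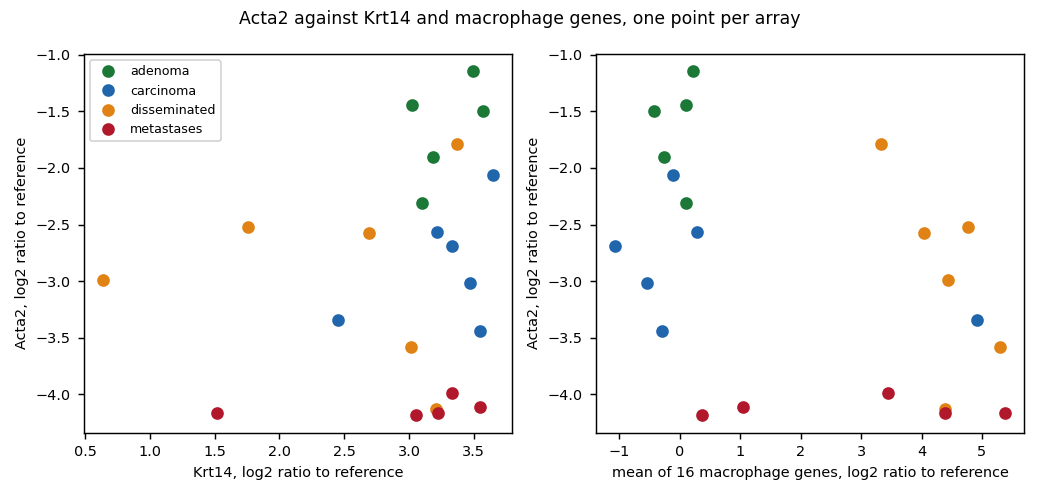
Log2 ratios on the 22 progression arrays, 1 point an array, by group, with that of Acta2 on 1 axis of each panel. In 1 panel Acta2 is set against Krt14, and in the other against the mean of 16 macrophage genes. Krt14 shows no line with Acta2 (r = 0.18), with low values such as 0.64 and 1.76 in disseminated replicates 3 and 5 and 1.52 in metastases replicate 4. Over the same arrays Tagln, which is not drawn, correlates with Acta2 (r = 0.97).

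Among 21204 genes above background on enough progression arrays, those most alike to each member were ranked by Pearson r over the 22 arrays. Acta2 and Tagln were each other's nearest gene, and both had Tmsb10, which encodes thymosin beta 10, among their 3 nearest (r = 0.93 with Acta2, 0.92 with Tagln). Actc1, the cardiac actin gene (r = 0.93), was the third for Acta2, and Acta1, the skeletal actin gene, was the nearest to Cnn1 (r = 0.93), with the limit of closely alike actin sequences given above. For Tagln Gbf1 (r = 0.92) was also among them. Myh11 had Olfr231, named for an olfactory receptor, as its nearest gene (r = 0.89), and its other two, like those of Cnn1, are probes with no gene symbol. Krt14 had Serinc2 (r = 0.92), Krt17 (0.92) and Zfp185 (0.91), and Krt17 had Krt14, Serinc2 (0.87) and Celsr2 (0.85). Trp63 had Col17a1, which encodes the hemidesmosome collagen of the basal adhesion list, as its nearest gene (r = 0.86), then Sfxn1 (0.85) and Tmem41a (0.85). Krt5 had S100a14, C1qbp and Tuba1a (r = 0.82 each), and Oxtr had Asic1 (r = 0.82), Wfdc15a (0.78) and Sar1a (0.77).

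In the chemotherapy experiment the 9 genes differed little between untreated, residual and relapsed tumors. None of the 9 was called in residual against untreated, in relapsed against untreated or in relapsed against residual tumors, and no member reached an unadjusted p below 0.05. Calls were rare over all genes too, at 0.101% (0.0973% higher and 0.00347% lower), 0.00347% (all of it higher) and 0.212% (0.00347% higher and 0.208% lower). The groups overlapped for all 9 members, and did not overlap for 0.789%, 1.66% and 1.68% of all genes. Adjusted p of the limma fit for the members was between 0.755 and 0.992. The largest change was that of Cnn1 in relapsed against untreated tumors (-0.53, SE 0.72, adjusted p = 0.950). A change of 2-fold in Cnn1 would be under 2 of its standard errors and was not detectable with these arrays.

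**Figure D5:**
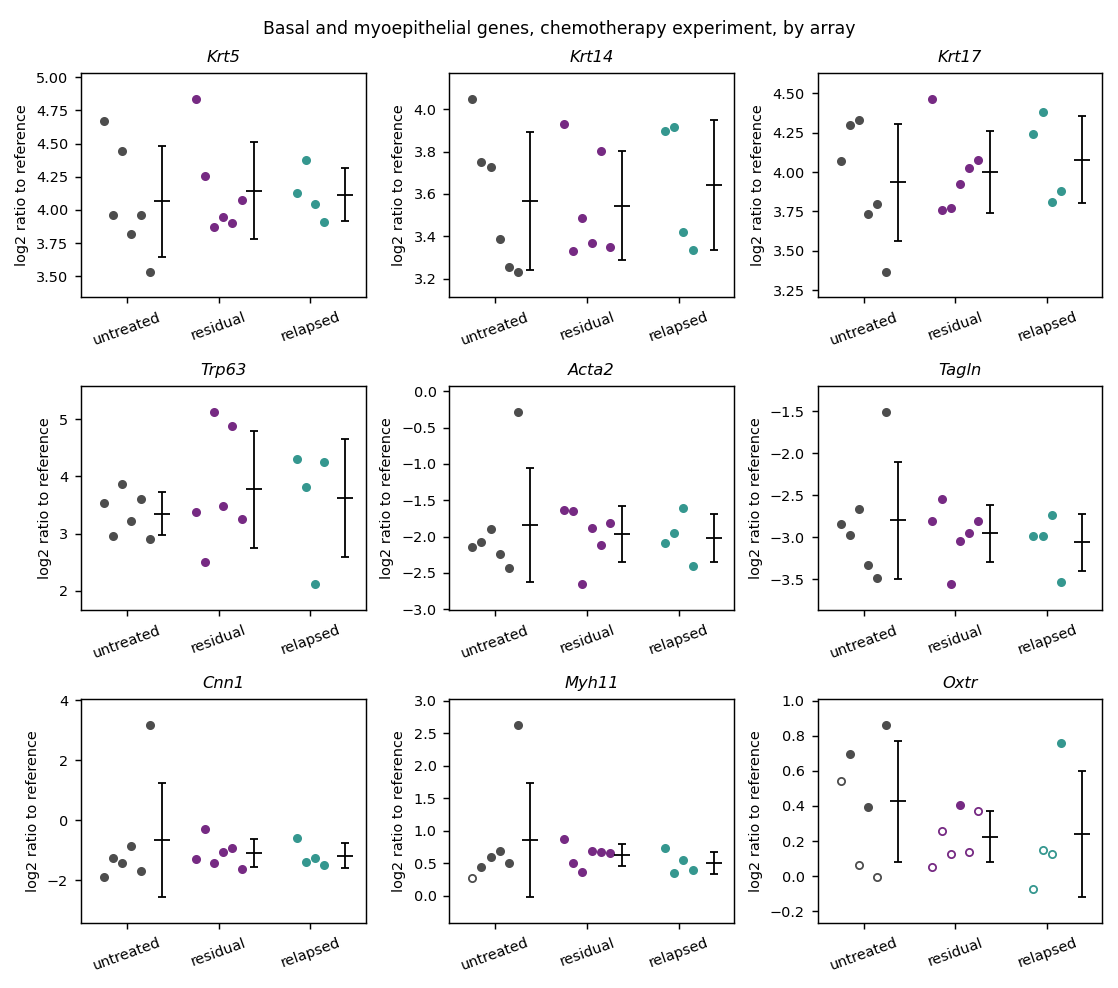
Log2 ratio to the reference (vertical axis) of each of the 9 genes on the 16 chemotherapy arrays, by group, with filled points for a sample channel well above background, open points otherwise, and means with SDs. The groups overlap for all genes, and untreated replicate 6 stands above the other untreated tumors for Acta2 (-0.29), Cnn1 (3.18) and Myh11 (2.63).

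The keratins were steady across treatment. Krt14 lay between 3.23 and 4.05 in untreated tumors (median 3.56) and between 3.33 and 3.93 in residual tumors (median 3.43), and was 3.90, 3.92, 3.42 and 3.33 in relapsed tumors. Krt5 lay between 3.54 and 4.67 in untreated tumors (median 3.96) and between 3.87 and 4.84 in residual tumors (median 4.01), and was 4.13, 4.38, 4.04 and 3.91 in relapsed tumors. Krt17 ranged from 3.37 to 4.33 over untreated tumors (median 3.93) and from 3.76 to 4.46 over residual tumors (median 3.97), with 4.24, 4.38, 3.81 and 3.88 in relapsed tumors. The spread within each group exceeded each difference between groups, which for these 3 genes was at most 0.14 (SE 0.19). Trp63 varied more, from 2.91 to 3.86 in untreated tumors (median 3.38) and from 2.499 to 5.13 in residual tumors (median 3.43), with 4.31, 3.81, 2.11 and 4.25 in relapsed tumors. Its highest values, 5.13 and 4.88, were those of residual replicates 3 and 5, and the change from untreated to residual tumors was 0.42 (SE 0.44, limma adjusted p = 0.828).

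The contractile genes were set apart in 1 untreated tumor. In untreated replicates 1 to 6 Acta2 was -2.14, -2.08, -1.90, -2.23, -2.43 and -0.29, Cnn1 was -1.89, -1.27, -1.42, -0.86, -1.69 and 3.18, and Myh11 was 0.28, 0.43, 0.59, 0.69, 0.50 and 2.63. Replicate 6 was the highest for each of these genes, and for Tagln too (-1.51, where the other 5 lay between -3.48 and -2.67). It was on slide 5 with relapsed replicates 3 and 4, and the other untreated tumors were on slides 1 and 2. The part of the slide in its values was not tested. Residual tumors lay between -2.66 and -1.64 for Acta2 (median -1.85), between -3.56 and -2.55 for Tagln (median -2.88), between -1.62 and -0.31 for Cnn1 (median -1.19) and between 0.36 and 0.87 for Myh11 (median 0.67). Relapsed tumors were at -2.09, -1.94, -1.61 and -2.41 for Acta2, at -2.98, -2.98, -2.73 and -3.53 for Tagln, at -0.59, -1.41, -1.28 and -1.50 for Cnn1, and at 0.73, 0.35, 0.55 and 0.40 for Myh11. Both treated groups thus lay within or near the range of the other 5 untreated tumors. The change of Cnn1 from untreated to residual tumors was -0.45 (limma adjusted p = 0.882) with that tumor and 0.32 (adjusted p = 0.741) without it, and those of Acta2, Tagln and Myh11 also changed sign, to 0.20, 0.11 and 0.13.

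On the array of untreated replicate 6 the mean of the 16 further contractile genes was -0.12, the highest of the untreated tumors. The mean of the pericyte and vascular smooth muscle list was 0.02 there, the lowest of the 6, which ran up to 0.67. Its macrophage mean was -0.75 and its fibroblast mean -2.08. Cnn1 and Myl9 had r = 0.98 over the 16 chemotherapy arrays and Myh11 was nearest to Eln, which encodes elastin (r = 0.95). Among the members, Acta2 with Cnn1 gave r = 0.83 over all arrays and 0.28 when the 2 arrays farthest from the median of Acta2, untreated replicate 6 and residual replicate 3, were left out together, and Acta2 with Myh11 0.86 and 0.34, while Acta2 with Tagln gave 0.96 and 0.86. Krt14 with Krt17 gave r = 0.79 (0.82 without the 2 arrays farthest from the median of Krt14). For Trp63 the nearest genes were Nxn (r = 0.94), Trim29 (0.90) and Snai2 (0.89).

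Oxtr was read in this experiment from the probe at chr6:112637108-112637169, so its values cannot be set beside those of progression. It was well above background in 3 of 6 untreated, 1 of 6 residual and 1 of 4 relapsed tumors, with medians of 0.47, 0.20 and 0.14 and changes from untreated tumors of -0.20 (SE 0.16, limma adjusted p = 0.755) and -0.19 (SE 0.18, adjusted p = 0.909). In the 16 contractile, 19 adhesion and 18 regulator genes none was called in any comparison of treatment groups. The largest measured difference in those lists was that of Krt6a, a keratin of stressed epithelia, 2.24 higher in relapsed than in untreated tumors (SE 0.58, adjusted p = 0.290), without a call.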

How the data were processed

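Transcripts were measured on 38 Agilent two-color arrays, with Cy5 on the sample and Cy3 on the Universal mouse reference throughout. Deposited were intensity values of each spot from the scanner (Agilent Feature Extraction 10.7 per the labels), not normalized, and a matrix of log2 ratios made by the authors with normexp background correction and loess within arrays. The progression RNA had a second round of amplification, which can compress or distort ratios. Groups follow the labels.

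R 4.3.3, with the packages limma (3.58.1) and statmod (1.5.0), and matplotlib 3.10.9 were used. Of 45018 spots, 43379 were not controls. The normexp background correction used an offset of 50, which shrinks ratios of dim spots. Loess within each array and then quantile normalization over an experiment's arrays followed. Outlier-flagged spots were left out, and the spots of a probe averaged. Of 41174 probes 22951 were named through accessions and 18223 by the array files. The probe with the highest mean signal stood for a gene. Each experiment was fitted as 1 limma model over its groups, with no covariates. The steps were tested on simulated data. The number of arrays limits the precision.

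Named were all members, called genes of the contractile, adhesion and regulator lists (up to 3 in each direction, with further called genes of these lists named after their values were seen), the extremes of the other cell type lists where they bear on a result, and the 3 genes most alike to each member where they have a symbol, with those of the chemotherapy arrays given in part. Members and lists were chosen with earlier results of these data known. Alternatives were a normexp offset of 0, processed signals, median centring, Aquantile in place of quantile, no step between arrays, the log2 ratios as deposited, a filter on dim probes, all probes tested or averaged by gene, slide and replicate blocks, only the groups compared, the methods' t-test in equal-variance form and each replicate left out. Flagged spots kept and arrays of low correlation left out were added after seeing the data.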

Additional observations from a re-analysis of the deposited data

Results flagged for a closer look

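Of 63 groups of values (9 genes in 7 groups), 7 held a sample far from the others of its group by Dixon's test, and chance alone gives such a sample in about 1 in 20 groups. All values are log2 ratios to the reference. Untreated replicate 6 was the highest untreated tumor for 3 contractile genes: -0.29 for Acta2, where the next was -1.90, 3.18 for Cnn1, where the next was -0.86, and 2.63 for Myh11, where the next was 0.69. Adenoma replicate 2 was the highest adenoma for Oxtr (0.65, next 0.25). Single arrays were the lowest of their group for basal keratins: carcinoma replicate 6 for Krt14 (2.45, next 3.21), disseminated replicate 3 for Krt5 (1.51, next 2.99) and metastases replicate 4 for Krt14 (1.52, next 3.06).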

How the results depend on the processing

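Over 81 changes (9 genes in 9 comparisons) and 2115 values under alternatives, the sign turned in 137 values of 37 changes, none of them among the 13 changes with an adjusted p below 0.05, while 11 values gained and 18 lost a call. None of these alternatives read Acta2 only from the probe that spans chr19:33949738-33952992, so they do not cover the signs it gave. That probe gave 0.49 from carcinomas to metastases and 0.20 from adenomas to disseminated cells, where the main fit gave falls among the 13. From adenomas to metastases Acta2 and Cnn1 were called under all 25 settings, and Tagln under 24, with -0.998 in the deposited log2 ratios. By that Acta2 probe the change was -0.51 (limma adjusted p = 0.0733 over all probes), with no call. The number of members called was 0 for carcinomas against adenomas under Aquantile, without normalization between arrays, in the deposited log2 ratios and with the mean of a gene's probes. Of all genes, 2.54%, 2.54%, 3.02% and 2.42% were called under these settings, against 3.31% in the main fit. Members called were 1 for disseminated cells against adenomas in the deposited log2 ratios and with the mean of probes, and 0 by the methods' t-test. The shares of all genes were 9.55%, 8.66% and 6.67%, against 10.5% in the main fit. For metastases against disseminated cells the number was 0 in the deposited log2 ratios, with the mean of probes, with only the groups compared in the fit and by the methods' t-test. There 8.34%, 5.08%, 2.46% and 0.577% of all genes were called, against 7.11% in the main fit. Metastases against carcinomas gave 0 with the mean of probes (7.37% of all genes) and 2 with only the groups compared (9.81% of all genes, Cnn1 -1.28, adjusted p = 0.0423). Disseminated cells against carcinomas gave 1 with processed signals (Oxtr -1.71, adjusted p = 0.0273), where 16.6% of all genes were called. The cause of these shifts was not tested. Without the arrays of low correlation, a choice that narrows the spread within groups, the count was 2 for disseminated cells against carcinomas and 4 for metastases against disseminated cells. Leaving out 1 replicate gave 0 to 2 members for carcinomas against adenomas (2 without adenoma replicate 1, with Tagln at -1.02), 0 to 1 for metastases against disseminated cells and 1 to 2 for metastases against carcinomas. For carcinomas against adenomas, 3.47% of all genes were called without adenoma replicate 1. Without carcinoma replicate 3, where 0 members were called, the share was 2.65%. Beside the other counts with arrays left out, the share of all genes is not given, so they are not read as results about the members.

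Replicate numbers shared between groups did not pair the arrays: deviations from the group means correlated between -0.41 and 0.42 over same-numbered arrays. With the replicate number as a block, the members called were 1, 2, 0, 3, 1 and 1 in the 6 progression comparisons (carcinomas, disseminated cells, then metastases, each against the earlier groups, adenomas first) and 0 in each of the 3 chemotherapy comparisons, and no count changed. In the progression comparisons 2.91%, 8.31%, 11.2%, 14.3%, 12% and 8.31% of all genes were called with this block. The correlation of arrays within a slide was 0.060 in progression and 0.015 in chemotherapy. Oxtr and the Trp63 probes near background are limited by signal.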
